A study of Homo sapiens with 6 samples.

Results

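The 2 siRNAs against the transcription factor BHLHE41 were set against each other in OVCAR3 cells, an established cell line of high-grade serous ovarian carcinoma. The comparison takes the array of cells transfected with siBHLHE41 #A minus the array of cells transfected with siBHLHE41 #B, 2 of the 6 arrays of the series, over the 21448 transcript probes among 24351 probes. Each siRNA had 1 array, so no difference below has a replicate check, no p-value is given, and the precision is limited by having so few arrays. The other OVCAR3 array, transfected with siControl, is outside the difference and its value is given for orientation, and 3 arrays of RMG1, a clear cell carcinoma line, were made with siCPNE8 #A, siCPNE8 #B and siControl. The siRNAs were delivered by lipid transfection, total RNA was taken for Affymetrix Clariom S arrays, and the sources give neither an siRNA concentration nor a time of harvest for the arrays. The values are log2 intensities after RMA, which corrects background, normalizes between arrays and gives 1 value per transcript.

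An siRNA directs the cleavage of a transcript that it matches, and it can also act on transcripts that match only a short stretch of it. For this reason a target is commonly depleted with more than 1 siRNA. BHLHE41, also called DEC2, is a basic helix-loop-helix repressor that binds E-box sequences and takes part in the circadian clock. The genes furthest apart between its siRNAs included the subunits of calprotectin, S100A8 and S100A9, a calcium- and zinc-binding protein of neutrophils and inflamed epithelium, and CXCL8, the chemokine interleukin-8, which NF-κB and AP-1 induce and which attracts neutrophils.

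The target itself was lower with siRNA #A. BHLHE41 read 12.99 with #A and 13.63 with #B, against 14.51 with siControl, a difference of -0.63 on the log2 scale between #A and #B, just past the fold used below. Both siRNA arrays thus lay below the siControl array. Its paralog BHLHE40, which acts on many of the same promoters, read 11.94 with #A, 12.14 with #B and 11.08 with siControl, a difference of -0.20 that was not past the fold. Among 22 clock genes, with BHLHE41 among them, 3 were under 0.66-fold with #A relative to #B (13.6%) and 0 were over 1.5-fold. Of all named genes 6.66% were under 0.66-fold and 7.2% over 1.5-fold. The 3 clock genes were RORA, an activator of BMAL1 transcription with 9.61 and 10.53, the target BHLHE41 itself, and the clock repressor PER2. PER2 was above background in neither array. The median difference of the list was -0.16.

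A gene is called higher with #A where its ratio to #B was over 1.5 and lower where it was under 0.66, the folds that the study used for its own lists. Of 17687 named genes, 1273 were higher with #A (7.2% of all) and 1178 were lower (6.66%), with a median difference of 0.01. By transcript probe, 1579 were higher (7.36%) and 1428 lower (6.66%). The background of an array is taken as the level that 95% of its 612 negative control probes did not exceed, and it was 8.47 with #A and 7.97 with #B. Above it were 37.2% of transcript probes with #A and 40.9% with #B. Of the 3007 probes past the fold, 60.5% were above background in neither array, close to the 58.9% of all transcript probes that were. Among the 7732 named genes above background in the brighter of the arrays, 467 were higher with #A (6.04%) and 572 lower (7.4%). A gene needs a brighter signal to pass in #A than in #B, and among the 6977 genes above background in both the counts were 427 and 406. Past the fold were also 147 of 2197 positive control probes (6.69%), 289 of 612 negative control probes (47.2%) and 0 of 63 ERCC probes. The other pair of siRNAs in the series, siCPNE8 #A and #B in RMG1 cells, which shares no array with this one, had 1443 genes over 1.5-fold (8.16%) and 1375 under 0.66-fold (7.77%), or by probe 1808 (8.43%) and 1640 (7.65%). The SD of the difference over all transcript probes was 0.43 for the siBHLHE41 pair and 0.44 for the siCPNE8 pair. The 2 pairs are different siRNAs, so the letters #A and #B do not correspond and the signs of their differences are not comparable.

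**Figure D1:**
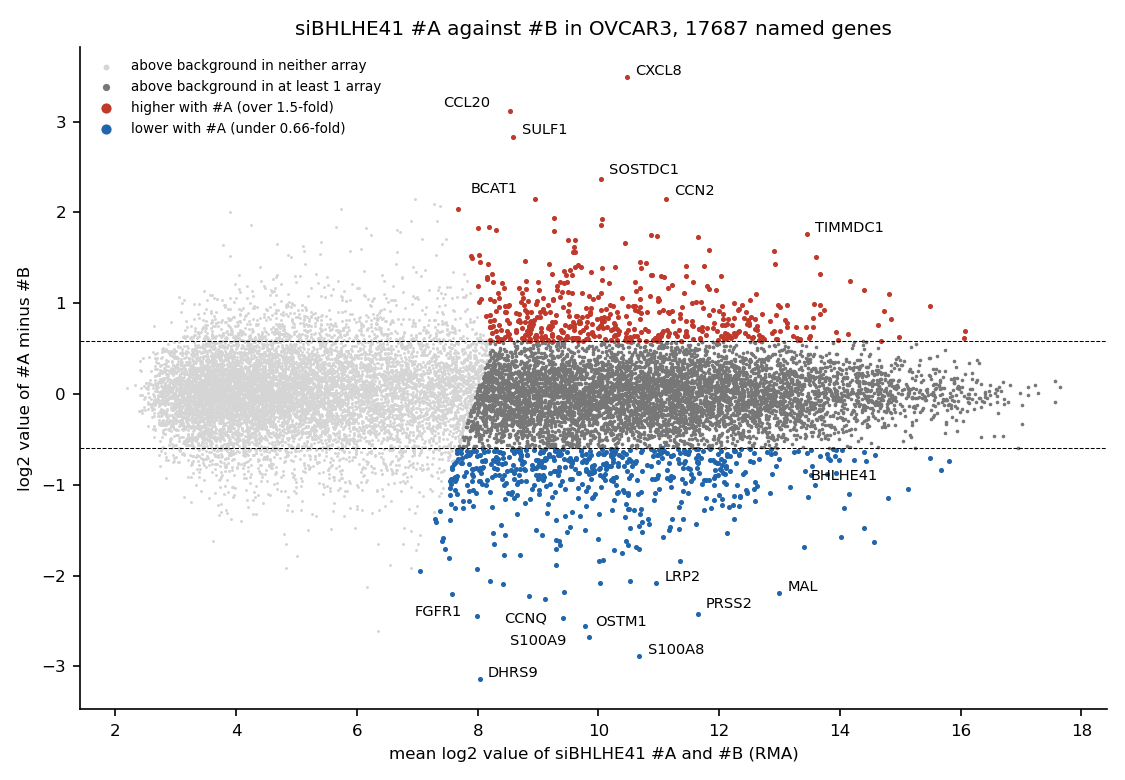
Difference of siBHLHE41 #A minus #B (y axis, log2) against the mean log2 value of both arrays (x axis) for 17687 named genes, with dashed lines at 1.5-fold and 0.66-fold. CXCL8, CCL20 and SULF1 stand highest, and DHRS9, S100A8 and S100A9 lowest. Genes above background in neither array are pale.

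The subunits of calprotectin were among the genes furthest lower with siRNA #A. S100A8 read 9.23 with #A and 12.12 with #B, a difference of -2.89, and 13.14 with siControl. S100A9 read 8.50 with #A and 11.18 with #B, a difference of -2.68, and 11.94 with siControl. The 2 subunits thus kept the same order over the arrays, with #A lowest and far from the others. S100A9 with #A lay just above background. Of 20 measured S100 genes, 5 were lower with #A (25%) and 2 higher (10%), against 6.66% and 7.2% of all named genes, and 10 were above background in the brighter array. S100A6, a calcium-binding protein of epithelial cells, read 11.32 with #A and 12.49 with #B. S100A4, linked to cell motility, read 7.27 with #A and 8.45 with #B, and the background with #A is above both values. S100A10, the annexin A2 partner, was on the other side with 16.36 and 15.75. Among 27 antimicrobial and antiprotease proteins 4 were lower and 4 higher, with the secreted protein WFDC2 lower by 0.85 on the log2 scale and the elastase inhibitor PI3 at 12.82 with #A and 11.98 with #B. PI3 was far below its siControl value of 15.89 with either siRNA.

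Some chemokines and other genes that NF-κB induces were higher with #A. CXCL8 read 12.21 with #A and 8.72 with #B, a difference of 3.49 and the largest of all named genes above background, against 12.77 with siControl. CCL20, which attracts CCR6-bearing lymphocytes and dendritic cells, read 10.09 with #A and 6.97 with #B, where it was not above background, and 12.004 with siControl. It was therefore at least 4.33-fold higher with #A, taking the background of the #B array as the upper limit of its level there. CXCL1, another neutrophil chemokine, read 12.68 with #A, 11.39 with #B and 13.64 with siControl. The 3 chemokines had the same order, with siControl highest and #B lowest. CXCL2, a close relative of CXCL1, was within the fold, with 9.21 with #A and 9.32 with #B. Of 34 measured chemokines 6 were higher with #A (17.6%) and 1 lower (2.94%), beside 7.2% and 6.66% of all named genes. However, only 6 of the 34 were above background, 3 of them higher, and the median difference of all 34 was 0.08.

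Other NF-κB genes, picked after their values were seen, include some with the same order and some within the fold. TNFAIP3, the deubiquitinase A20, read 12.16 with #A, 10.75 with #B and 13.20 with siControl. NFKBIA, the inhibitor IκBα, read 12.90, 11.998 and 13.26 in the same arrays. IER3, an early response gene that protects cells from TNF-induced death, had 14.36 with #A, 12.85 with #B and 14.82 with siControl. NFKB1 itself differed by 0.30, and the A20-binding inhibitors TNIP1 and TNIP2 by 0.41 and 0.09, all within the fold. Of the 153 TNF and NF-κB response genes measured, 34 were over 1.5-fold with #A relative to #B (22.2%) and 10 under 0.66-fold (6.54%), beside 7.2% and 6.66% of all named genes. The median difference of the list was 0.12, so that its middle lay well within the fold. Of its 78 genes above background, 17 were higher and 7 lower. Among the lower ones was the calcineurin inhibitor RCAN1, above background with #B and not with #A and at least 1.47-fold lower with #A. EGR3, an early growth response factor, read 6.07 with #A and 8.01 with #B, and the background with #A is above both values, so that no fold is given. Of 40 genes of the interleukin-1 and interleukin-6 families and their receptors 10 were higher (25%) and 2 lower (5%). Only 15 of these 40 were above background, with 5 higher and 0 lower. Among these 5, IL18, IL6 and IL6ST are also in the NF-κB list, as are CXCL8, CCL20 and CXCL1 of the chemokines. IL18, a cytokine of the interleukin-1 family, read 10.45 with #A and 8.76 with #B, and IL6ST, the shared receptor subunit gp130, 12.56 and 11.74. In the RMG1 pair the same NF-κB list had 13 genes over 1.5-fold and 42 under 0.66-fold, and CXCL8 had a difference of -2.40 and CCL20 of -1.71 between siCPNE8 #A and #B. Those are other siRNAs, so their direction cannot be set against that of the siBHLHE41 pair.

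The 250 bases before the start site of CXCL8 and CCL20, the largest differences above, and of S100A8 and S100A9, the calprotectin genes on the other side, are shown because each pair stood on the same side. They come from the RefSeq promoter table of GRCh38.p14 and run 5′ to 3′ on the strand of the gene. Capitals mark matches on either strand to GGNNNTTCC, a form of the NF-κB site, to TGANTCA, the AP-1 site, or to CACGTG, the E-box that BHLHE41 binds. The windows are chr4:73740319-73740568 (+ strand) for CXCL8, chr2:227813592-227813841 (+ strand) for CCL20, chr1:153391189-153391438 (- strand) for S100A8 and chr1:153357604-153357853 (+ strand) for S100A9.
CXCL8: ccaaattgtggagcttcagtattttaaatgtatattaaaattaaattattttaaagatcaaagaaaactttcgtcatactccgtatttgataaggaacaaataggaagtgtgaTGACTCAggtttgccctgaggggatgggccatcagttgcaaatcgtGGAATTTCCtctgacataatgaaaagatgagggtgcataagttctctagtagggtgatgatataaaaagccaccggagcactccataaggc
CCL20: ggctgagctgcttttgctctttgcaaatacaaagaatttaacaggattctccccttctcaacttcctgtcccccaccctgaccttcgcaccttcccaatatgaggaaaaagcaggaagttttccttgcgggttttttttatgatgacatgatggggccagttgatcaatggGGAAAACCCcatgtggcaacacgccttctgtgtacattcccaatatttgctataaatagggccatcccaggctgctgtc
S100A8: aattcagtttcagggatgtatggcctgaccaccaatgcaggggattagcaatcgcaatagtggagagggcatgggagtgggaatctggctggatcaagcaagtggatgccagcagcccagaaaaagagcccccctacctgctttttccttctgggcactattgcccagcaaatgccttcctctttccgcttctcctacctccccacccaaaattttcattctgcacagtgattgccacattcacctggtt
S100A9: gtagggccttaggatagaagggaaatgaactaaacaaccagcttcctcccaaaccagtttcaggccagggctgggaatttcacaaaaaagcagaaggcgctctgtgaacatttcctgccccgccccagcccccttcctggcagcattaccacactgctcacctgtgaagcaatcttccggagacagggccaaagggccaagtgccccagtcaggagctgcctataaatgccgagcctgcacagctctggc
CXCL8 had GGNNNTTCC starting 91 bases and TGANTCA starting 137 bases before the start site, and CCL20 had GGNNNTTCC 79 bases before it. The S100A8 and S100A9 windows held no match to any of the 3 patterns. GGNNNTTCC occurs in 17.1% of the 27305 windows of the table, TGANTCA in 6.6% and CACGTG in 6.49%. Among genes above background with a window, GGNNNTTCC was in 77 of 386 that were higher with #A (19.9%) and in 89 of 466 that were lower (19.1%), and CACGTG was in 34 (8.81%) and 37 (7.94%), beside 18.7% and 7.7% of the 14250 array genes with a window. A match is a run of letters and not evidence of binding.

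**Figure D2:**
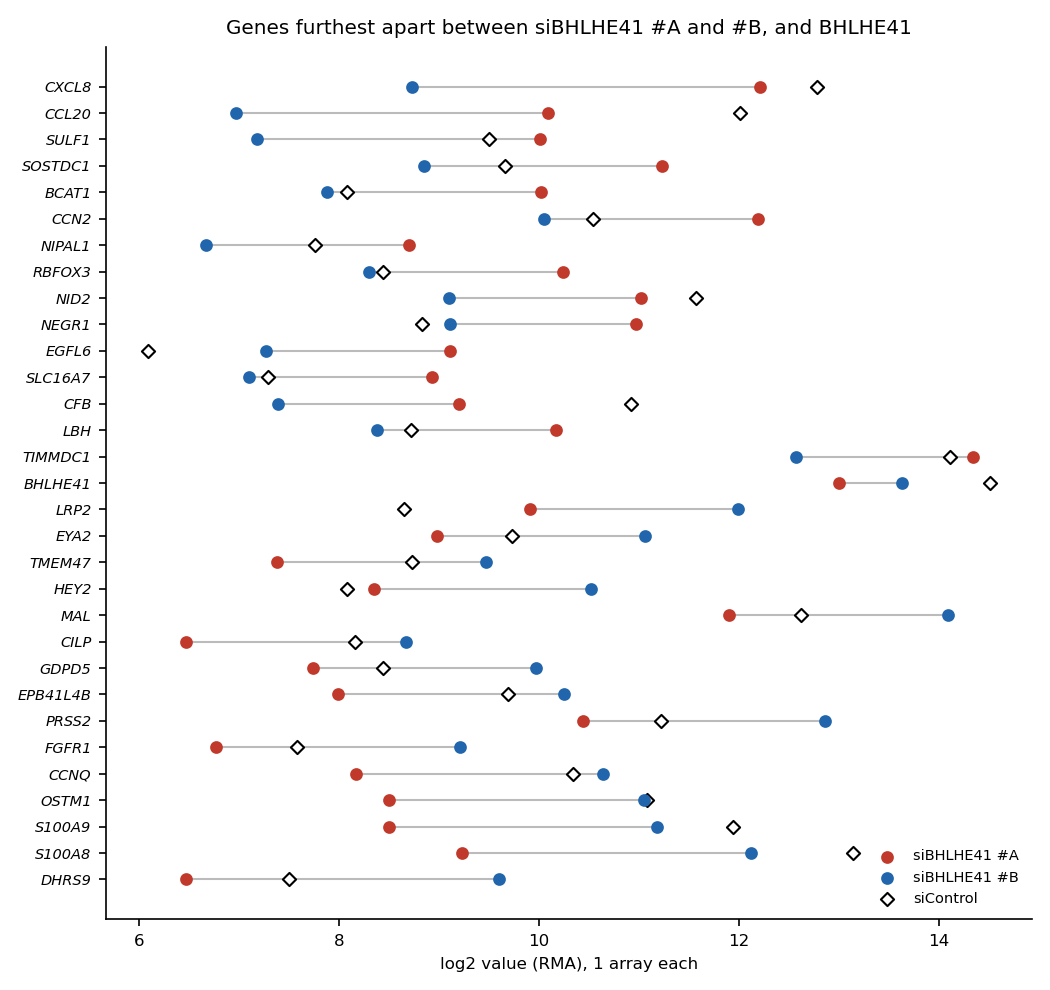
Log2 values (x axis) of the 15 genes furthest apart in either direction and of BHLHE41 with siBHLHE41 #A (red), siBHLHE41 #B (blue) and siControl (diamond), 1 array each. CXCL8, CCL20 and CFB have siControl above both siRNAs, as do S100A8, S100A9 and BHLHE41, whereas OSTM1 has siControl at the level of #B and TIMMDC1 near that of #A.

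The rest of the 15 genes furthest higher with #A were of several kinds. SULF1, a sulfatase that edits heparan sulfate at the cell surface, read 10.01 with #A and 7.17 with #B, where it was not above background, so that it was at least 4.1-fold higher with #A, and 9.49 with siControl. SOSTDC1, a secreted antagonist of BMP and WNT ligands, read 11.22 with #A, 8.85 with #B and 9.66 with siControl. CCN2, the matricellular protein CTGF, read 12.19, 10.05 and 10.54 in the same arrays. In these last 2 genes #A stood above siControl and #B below it. NID2, a basement membrane nidogen, read 11.02 with #A and 9.10 with #B, and CFB, complement factor B, 9.20 and 7.39, where only the first was above background. Both were highest with siControl, at 11.57 and 10.92. BCAT1, the cytosolic branched-chain aminotransferase, read 10.02 with #A, and with #B and siControl it was not above background. The neuronal splicing regulator RBFOX3, the adhesion protein NEGR1 and the transcription cofactor LBH stood higher with #A by 1.94, 1.86 and 1.79, with siControl nearer to #B. Of the genes not above background with #B, BCAT1 was at least 4.14-fold higher with #A, CFB 2.34-fold, EGFL6 2.19-fold, the monocarboxylate carrier SLC16A7 1.94-fold and NIPAL1 1.65-fold.

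Genes of TGF-β, activin and BMP signaling were past the fold in both directions. Of 42 measured genes 9 were over 1.5-fold with #A (21.4%) and 6 under 0.66-fold (14.3%), beside 7.2% and 6.66% of all named genes. The median difference was 0.26. Above background were 27 of the 42, with 7 higher and 4 lower. SMAD7, an inhibitory SMAD of the TGF-β pathway, read 10.11 with #A and 8.76 with #B, and SMAD6, which inhibits BMP signaling, 11.72 and 10.43. ID2, a helix-loop-helix inhibitor, read 10.41 and 9.02. The activin antagonist FST was lower with #A, at 9.95 and 11.23, and so was the ligand BMP4, at 11.21 and 12.21. FN1, fibronectin, read 12.52 with #A, 10.79 with #B and 12.21 with siControl, and THBS1, thrombospondin-1, 11.84, 10.09 and 11.37. The integrin subunit ITGB5 had 11.27 with #A, 9.60 with #B and 10.54 with siControl. These 3 matrix and adhesion genes were at or above siControl with #A and below it with #B. FN1 comes from the mesenchymal list, and THBS1 and ITGB5 were picked after their values were seen. Of 21 genes of plasminogen activation 5 were higher with #A (23.8%) and 1 lower (4.76%), with the activator PLAT at 11.97 and 10.86. Only 7 of the 21 were above background, with 3 higher and 0 lower.

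The 15 genes furthest lower with #A were also of several kinds. DHRS9, a short-chain dehydrogenase that oxidises retinol, had the lowest difference of the genes above background. It read 6.46 with #A, not above background, and 9.60 with #B, so that it was at least 2.19-fold lower with #A, and with siControl it was not above background. PRSS2, anionic trypsinogen, read 10.43 with #A, 12.86 with #B and 11.22 with siControl, although probes of the near-identical trypsinogen genes may not be separable. MAL, a raft proteolipid of apical sorting, had 11.90 with #A, 14.09 with #B and 12.62 with siControl, and EYA2, a transcriptional coactivator and phosphatase, 8.98, 11.06 and 9.72. In PRSS2, MAL and EYA2 siControl lay between the siRNAs. LRP2, the endocytic receptor megalin, read 9.91 with #A and 11.99 with #B but 8.65 with siControl, below both. The receptor FGFR1, the membrane protein TMEM47, the phosphodiesterase GDPD5, CILP and EPB41L4B were above background with #B and not with #A, and were at least 1.66-, 2.0-, 2.82-, 1.15- and 3.44-fold lower with #A.

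Among NOTCH and WNT genes past the fold more were lower than higher with #A, while most members were within it. HEY2, a NOTCH-induced repressor, read 8.35 with #A and 10.52 with #B, at least 4.15-fold lower with #A, and 8.08 with siControl. HEY1, its relative, read 9.02, 10.36 and 7.88. The values with #B were thus the highest of the 3 for either gene. Of 29 measured NOTCH genes 5 were lower (17.2%) and 3 higher (10.3%), beside 6.66% and 7.2% of all named genes. Among the 12 above background 0 were higher and 3 lower, beside 6.04% and 7.4% of all named genes above background in the brighter array. DTX4, among the 3, read 6.64 with #A and 8.23 with #B, and the background with #A is above both values. The median difference of the 29 was 0.07, on the other side of 0. Of 43 WNT genes 7 were lower (16.3%) and 2 higher (4.65%), with a median of -0.12. Among the 15 WNT genes above background 5 were lower and 1 higher. LGR5, a receptor of R-spondins, read 9.88 with #A and 10.96 with #B, and its relative LGR4 13.08 with #A and 14.09 with #B.

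Several genes were level with siControl under 1 siRNA and far below it under the other, and those besides OSTM1, CCNQ and TIMMDC1 were picked after their values were seen. With #A, OSTM1, the partner subunit of the lysosomal chloride transporter ClC-7, read 8.50, against 11.05 with #B and 11.08 with siControl. CCNQ, the cyclin of CDK10, read 8.17 with #A, not above background, 10.64 with #B and 10.34 with siControl, at least 4.51-fold lower with #A than with #B. ATP6V0E1, a subunit of the vacuolar proton pump, read 13.75 with #A, 15.39 with #B and 15.37 with siControl. The peptidase ERAP1 had 9.20, 10.79 and 10.80, JKAMP 9.78, 11.46 and 11.49, and PLEKHS1 9.52, 11.27 and 11.25. In these genes the #B array differed from siControl by at most 0.31. The mirror case was TIMMDC1, an assembly factor of mitochondrial complex I, with 14.34 with #A, 12.57 with #B and 14.11 with siControl. GXYLT1, a xylosyltransferase that modifies NOTCH, read 10.98 with #A, 9.58 with #B and 11.01 with siControl, and PPA1, the cytosolic pyrophosphatase, 13.65, 12.21 and 13.43. KIF3B, a kinesin-2 motor, read 11.51, 10.07 and 11.77. In the RMG1 pair the differences of OSTM1, CCNQ and TIMMDC1 were 0.52, 0.02 and 0.01.

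Among cell division genes the members past the fold in the mitosis list were lower with #A, and most members were within the fold. Of 84 measured genes of mitosis and the spindle, 13 were under 0.66-fold with #A relative to #B (15.5%) and 0 over 1.5-fold, beside 6.66% and 7.2% of all named genes, with a median difference of -0.33 and 79 of the 84 above background. CDC25C, the phosphatase that activates CDK1, read 8.62 with #A and 9.56 with #B, NEK2, a centrosomal kinase, 9.83 and 10.75, and PRC1, a midzone microtubule bundler, 11.48 and 12.39. The proliferation marker MKI67 had 14.51 and 14.88. CDC25C had the lowest difference of the list, so that 0 members were lower by 2-fold or more. Of 50 replication-dependent histone genes 11 were lower (22%) and 1 higher (2%), with a median of -0.32, where H3C2 read 9.17 with #A and 10.41 with #B. Histone genes are nearly identical in sequence and their probes may not be separable. Of 66 genes of DNA replication 10 were lower (15.2%) and 3 higher (4.55%). Its members went both ways, with ORC5 of the origin recognition complex at 12.30 and 13.39 and the replication clamp PCNA at 12.75 and 11.75. In the RMG1 pair the median differences of the mitosis, histone and replication lists were -0.15, -0.22 and -0.22, where the sign depends on which siCPNE8 siRNA is called #A.

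Cholesterol synthesis was the list with the largest share of genes lower with #A. Of 20 measured genes 7 were under 0.66-fold (35%) and 0 over 1.5-fold, beside 6.66% and 7.2% of all named genes. The median difference was -0.38. SC5D, the lathosterol desaturase, read 9.65 with #A, 11.27 with #B and 11.13 with siControl. HMGCS1, which makes HMG-CoA, read 13.60, 14.70 and 13.85, and SREBF2, the transcription factor of the pathway, 11.26, 12.02 and 10.99. SC5D was thus level with siControl under #B, and HMGCS1 and SREBF2 were highest under #B. The siCPNE8 pair in RMG1 cells had 11 of the 20 under 0.66-fold and a median of -0.66, a direction not comparable between the pairs. Of 38 genes listed for fatty acid and triglyceride metabolism 4 were lower (10.5%) and 1 higher. That list also holds MUSK, a receptor kinase of muscle, which was within the fold.

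**Figure D3:**
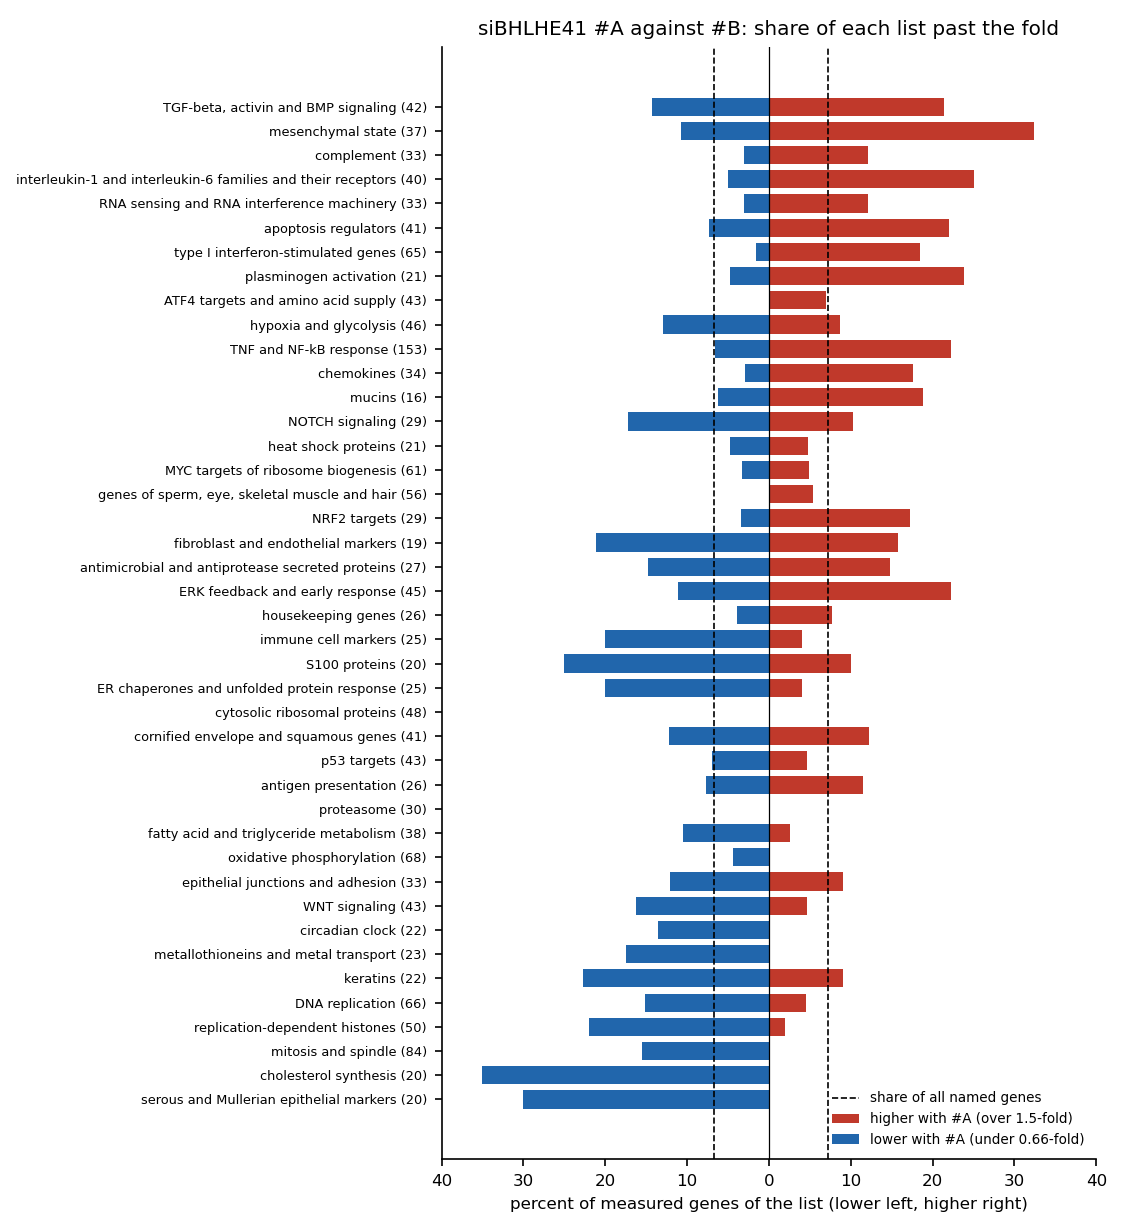
Share of the measured genes of each list (number in brackets) that were higher (right, red) or lower (left, blue) with siBHLHE41 #A relative to #B, with dashed lines at the shares of all named genes, 7.2% and 6.66%. Cholesterol synthesis has 35% lower and 0% higher, and the mesenchymal list has 32.4% higher.

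Among epithelial markers of the serous and Müllerian lineage, members past the fold were lower with #A. Of 20 measured genes 6 were under 0.66-fold (30%) and 0 over 1.5-fold, beside 6.66% and 7.2% of all named genes. The median was -0.43. KRT19, a keratin of simple epithelia, read 13.24 with #A, 14.81 with #B and 14.02 with siControl, and KRT18 15.44, 16.18 and 15.79. The tight junction gene CLDN4 read 11.90, 12.66 and 12.20. For these 3 genes siControl stood between the siRNAs. PAX8, the lineage transcription factor, differed by -0.38 and MUC16, the antigen CA125, by -0.25, both within the fold. Of the 10 lineage markers checked, 8 were above background with #A, 9 with #B and 9 with siControl, MSLN with none of them and WT1 with #B and siControl. Of 22 keratin genes 5 were lower (22.7%) and 2 higher (9.09%), and of 33 genes of epithelial junctions 4 were lower (12.1%) and 3 higher (9.09%). KRT18 and KRT19 are counted again among the keratins, and CLDN4 among the junction genes.

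Of 37 genes of the mesenchymal state 12 were higher with #A (32.4%) and 4 lower (10.8%), beside 7.2% and 6.66% of all named genes. The median was 0.25, but only 10 were above background. CALD1, an actin-binding protein, read 12.80 with #A and 11.87 with #B, and the adhesion protein CDH2 12.51 and 11.74. VIM, vimentin, read 7.09 with #A and 8.15 with #B, and the background with #A is above both values, so that no fold is given. Of the immune markers PTPRC, CD3D, CD14, CD68, MS4A1 and LYZ and the endothelial markers PECAM1, VWF and CDH5, 0 were above background in any OVCAR3 array. Of 4 fibroblast markers only the collagen COL1A2 was above background, at 9.36 with #A and 9.55 with #B, and COL1A1, DCN and PDGFRA were not. Of the longer lists, 0 of 25 immune cell markers and 2 of 19 fibroblast and endothelial markers were above background, and 0 of these 2 were past the fold. In RNA of a whole culture, fewer cells of a kind and less RNA per cell cannot be told apart.

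Interferon-stimulated genes past the fold were mostly dim. Of 65 measured genes 12 were over 1.5-fold with #A (18.5%) and 1 under 0.66-fold (1.54%), beside 7.2% and 6.66% of all named genes. The median was 0.15, yet only 24 were above background and 3 of these were higher. These were PLSCR1, with 12.59 with #A and 11.91 with #B, the RNA-activated kinase EIF2AK2, with 13.25 and 12.64, and the RNA-editing enzyme ADAR, with 10.10 and 9.50. USP18, which removes ISG15 from proteins, was lower, with 8.50 and 9.28. IFIT1 and OAS1, induced by interferon, differed by -0.03 and 0.05. In the RMG1 pair 23 of the 65 genes were under 0.66-fold and 1 over 1.5-fold, with a median of -0.44, again with a direction not comparable between the pairs. Of 33 genes of RNA sensing and RNA interference 4 were higher (12.1%) and 1 lower, and RIGI, the sensor RIG-I, had 10.54 with #A and 10.87 with #B. This list shares EIF2AK2, ADAR, RIGI and other genes with the interferon list.

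**Figure D4:**
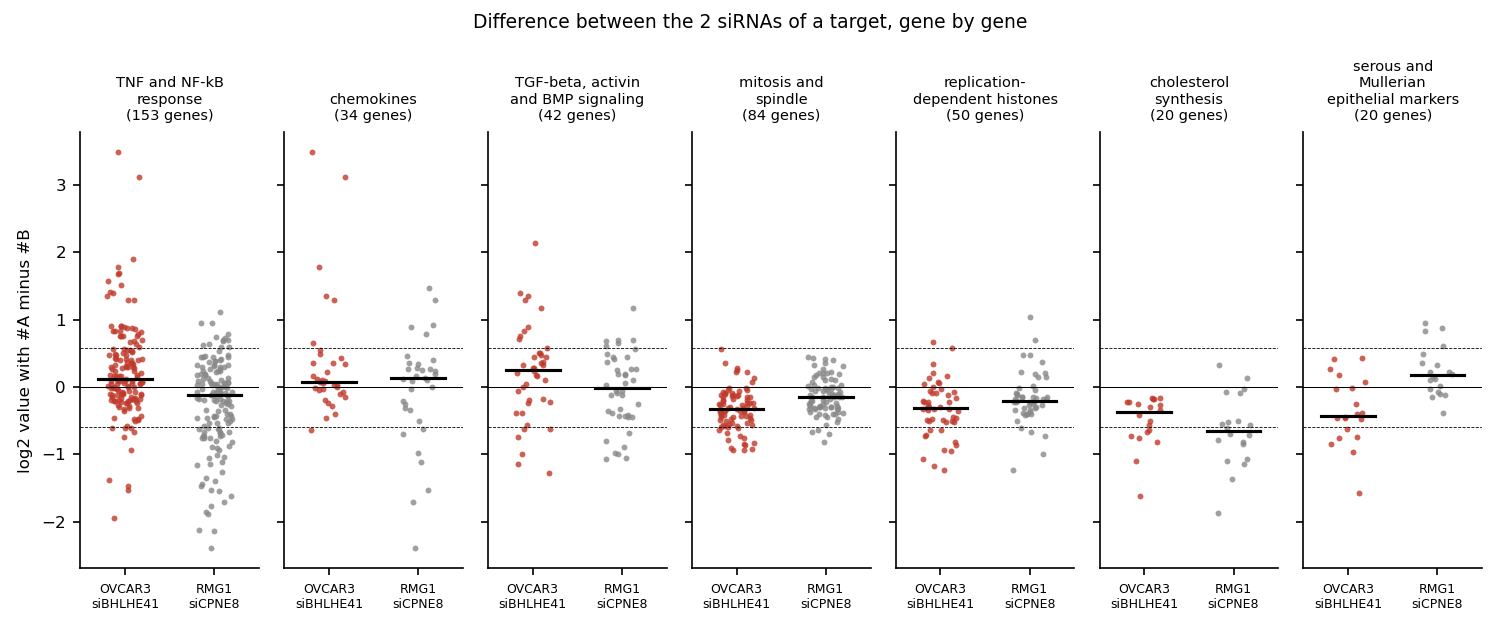
Difference of siRNA #A minus #B (y axis, log2) for each gene of 7 lists, for siBHLHE41 in OVCAR3 cells (red) and for siCPNE8 in RMG1 cells (grey), with the median of the list as a bar and dashed lines at 1.5-fold and 0.66-fold. The median of the TNF and NF-κB list is 0.12 in OVCAR3 and -0.13 in RMG1, and that of cholesterol synthesis is -0.38 and -0.66. The letters #A and #B do not correspond between the targets, so the signs are not comparable between the pairs.

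Lists of abundant machinery differed little. Of 48 genes listed as cytosolic ribosomal proteins and 30 proteasome genes 0 were past the fold in either direction. Their median differences were -0.06 and -0.08. The first list also holds the mitochondrial proteins MRPL13 and MRPL23 and the readthrough locus RPL17-C18orf32. Of 68 genes of oxidative phosphorylation 3 were lower (4.41%) and 0 higher, and of 61 MYC targets of ribosome biogenesis 3 were higher (4.92%) and 2 lower (3.28%). The shares of all named genes were 7.2% higher and 6.66% lower. The 26 housekeeping genes had 2 higher and 1 lower. Heat shock genes had 1 higher and 1 lower of 21, although CHORDC1, a cochaperone of HSP90, read 14.97 with #A and 13.83 with #B and CRYAB, a small heat shock protein, 8.80 and 10.26. Genes particular to sperm, eye, muscle or hair, which these cells are not known to use, had 3 of 56 higher (5.36%), 0 lower and 4 above background.

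Most of the remaining lists held few genes past the fold above background. Their shares stand beside 7.2% higher and 6.66% lower of all named genes. Of 43 genes listed for ATF4 and amino acid supply 3 were higher with #A (6.98%) and 0 lower. The asparagine synthetase ASNS read 12.87 with #A and 12.10 with #B. The list also holds SLA2, a signaling adaptor and not a gene of amino acid supply, which was within the fold. Of 25 ER chaperones 5 were lower (20%) and 1 higher (4%), with HYOU1, a chaperone of the ER lumen, at 13.44 with #A and 14.15 with #B. Of 33 complement genes 4 were higher (12.1%) and 1 lower (3.03%). Only 6 of the 33 were above background, and 3 of these were higher and 0 lower. The inhibitor CD46, which protects cells from complement, read 12.87 with #A and 11.89 with #B. Of 26 genes of antigen presentation 3 were higher (11.5%) and 2 lower (7.69%), with B2M, the light chain of MHC class I, at 14.46 with #A and 13.80 with #B. The p53 targets had 2 higher and 3 lower of 43, the cornified envelope genes 5 and 5 of 41, and the mucins 3 and 1 of 16, where MUC16 and MUC15 alone were above background.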

How the data were processed

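Gene expression was measured on 6 Affymetrix Clariom S arrays, 1 per siRNA in each cell line, 2 of which are compared here. The authors deposited log2 values made by RMA in Expression Console, according to the submitters' processing notes, and no version was found. Values reach 18.35, although a 16-bit scanner ends at 16 on the log2 scale, so a rescaling that was not described is possible, and it may have stretched or shrunk log2 differences. Of 24351 probes, 2903 are controls. Of 21448 transcript probes, 17709 carry 1 symbol, 0 carry several and 3739 are unnamed here; they give 17687 genes, with the mean taken for 20 with several probes. Symbols were checked through gene identifiers against RefSeq of GRCh38.p14, and 0 changed.

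The difference of #A minus #B was taken as deposited, with Python 3.11.15 and pandas 2.3.3. No statistical test was made, since each side is 1 array and the sources name no separate cultures. Background is the 95th percentile of each array's negative controls, and "at least" folds put the dimmer array at the higher of its value and its background. Genes named are BHLHE41, S100A8 and CXCL8, the 15 furthest apart in each direction among those above background in the brighter array, and of each list the 4 members furthest apart under that condition; others were chosen after their values were seen. The 42 gene lists, with 1523 genes measured, were written from general knowledge. Members not found by symbol were matched through a synonym, so some lists hold a gene of another kind. Several lists share genes, so their counts are not independent. The comparison, the lists and the markers were chosen with earlier results of these data known. Alternatives were another fold, filters on dim probes, quantile normalization, centring, a lowess correction, genes counted once and control probes included. The labels and the study's methods name different media for OVCAR3.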

Additional observations from a re-analysis of the deposited data

How the results depend on the processing

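Each siRNA had 1 array, so leaving out a replicate was not possible. No paired analysis was possible because each group holds 1 array and no test was made. Quantile normalization, centring and the lowess correction moved the 170 named gene differences by at most 0.07 on the log2 scale and reversed none of them, and they moved the list medians by at most 0.04. The medians of the early response list (0.01) and the housekeeping list, both near 0, changed sign, to -0.00 with centring and 0.02 with quantile normalization.

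With folds of 2 and 0.5, 312 probes were higher with #A and 324 lower. With probes above background in the brighter array these counts were 531 and 657, and with probes above background in both arrays 488 and 463. With folds of 2 and 0.5, the TNF and NF-κB list had 13 genes higher, the interferon list 4 and the mesenchymal list 3, and the mitosis list had 0 genes lower, cholesterol synthesis 2 and the serous and Müllerian markers 1. With genes above background in the brighter array, the higher genes numbered 17 in the TNF and NF-κB list, 3 among chemokines, 3 in the interferon list and 4 in the mesenchymal list. Of 77 other list counts, 58 moved by over 1.5 times with folds of 2 and 0.5, and 38 of 77 with genes above background. The other alternatives kept the counts of probes within 1.5 times. Of the 77 other list counts, 4 moved with quantile normalization, 2 with the lowess correction and 1 with centring. Genes above background in neither array have no measured level, which limits lists such as the chemokines, with 6 of 34 above it, and the mesenchymal list, with 10 of 37.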

Other observations

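Further lists had members past the fold in both directions. Of 41 apoptosis regulators 9 were higher with #A (22%) and 3 lower (7.32%), beside 7.2% and 6.66% of all named genes. BCL2L11, the pro-apoptotic protein BIM, read 10.53 with #A, 11.91 with #B and 10.84 with siControl, and TNFSF10, the death ligand TRAIL, 11.53, 10.22 and 9.68. CYCS, cytochrome c, read 14.80 with #A, 13.55 with #B and 15.37 with siControl. Of 46 genes of hypoxia and glycolysis 4 were higher (8.7%) and 6 lower (13%), beside the same shares of all named genes, with a median difference of 0.12. EGLN3, a prolyl hydroxylase that marks HIF for degradation, read 10.40 with #A and 8.78 with #B, and EPAS1, the factor HIF-2α, 10.78 and 11.69.

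Of 29 targets of NRF2 5 were higher with #A (17.2%) and 1 lower (3.45%), with the thioredoxin reductase TXNRD1 at 15.01 and 14.24. Of 45 genes of ERK feedback and early response 10 were higher (22.2%) and 5 lower (11.1%), beside 7.2% and 6.66% of all named genes. Only 19 of the 45 were above background, with 4 higher and 4 lower. The ERK phosphatases went opposite ways, with DUSP6 at least 1.89-fold higher with #A (8.89, and 7.83 with #B, not above background) and DUSP5 at 8.61 and 9.997. Of 23 metallothionein and metal transport genes 4 were lower (17.4%) and 0 higher, with MT1F at 11.77 with #A and 12.90 with #B.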
